A study of Bos taurus with 11 samples.

Results

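Laminin chains, integrin subunits and the proteins that tie laminin to its network were followed across 3 regions of the bovine mammary gland. All genes whose symbol names a laminin chain, an integrin alpha or beta subunit, a nidogen, agrin, perlecan or dystroglycan were taken, which gave 40 of the 16279 genes in the table. They comprise 10 laminin chains, 25 integrin subunits (17 alpha and 8 beta) and 5 others, and all 40 passed the filter on low values. The laminin chain LAMA2 was not analysed here. Holstein heifers that had received no treatment gave the mammary samples at 10 to 12 months of age. Heifers 1, 3, 4 and 5 each gave parenchyma, which holds the ducts, and far stroma (n = 4 for either). Close stroma, a stromal region that the labels name without a distance, was taken in heifers 3, 4 and 5 (n = 3). Each sample is a bulk piece of tissue, so that fewer cells of a type and less RNA per cell cannot be told apart. The column taken as the close stroma of heifer 4 carries an extra letter that the labels do not explain, and values without it are given where it matters.

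Laminins are cross-shaped trimers of an alpha, a beta and a gamma chain that polymerise into the sheet on which epithelium, fat cells, muscle, nerves and vessels rest. Nidogens and perlecan join this sheet to type IV collagen, and agrin and dystroglycan tie it to cells. Integrins are receptors of an alpha and a beta subunit, and the pair decides the ligand: laminin, collagen, proteins with the RGD (arginine-glycine-aspartate) motif, or surface proteins of other cells. In the mammary gland, basal epithelial cells sit on laminin through hemidesmosomes, which hold the integrin of ITGA6 and ITGB4 and bind a trimer that holds LAMA3 and LAMB3.

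Depth lay between 7274474 and 11156909 reads per sample. Cell type markers separated the regions. The summed level of 14 luminal epithelium markers was 336 to 499 normalised counts in far stroma, and it reached 18254 to 39529 in close stroma, with 38496 to 47416 within parenchyma. For 10 basal and myoepithelial markers the sums were 2037 to 3464, 7883 to 19749 and 20730 to 28777 in the same order, and of these markers TP63 was at 0 in every far stroma sample. For 8 adipocyte markers the sums were 206602 to 325135, 50913 to 193944 and 1795 to 2316 in the same order of regions. The sums of 8 fibroblast markers (216196 to 475949, 55551 to 218406 and 65364 to 177562) and of 8 blood endothelium markers (25523 to 39611, 13501 to 28459 and 7599 to 9439) did not overlap between far stroma and parenchyma. Sums of 8 smooth muscle and pericyte markers (6461 to 9540, 8538 to 11455 and 10565 to 14474), of 7 nerve and Schwann cell markers (6271 to 7748, 6285 to 8400 and 9035 to 10543) and of 4 of 7 skeletal muscle markers (40.8 to 75.8, 55.6 to 82.4 and 58.1 to 98.9) lay closer together. The smooth muscle and the nerve sums were still higher in parenchyma than in far stroma, without overlap. A sum follows its most abundant genes: of the 7 nerve and Schwann cell markers 3 were called higher and 4 lower in parenchyma against far stroma, with a median of -1.79 on the log2 scale. Of the 8 smooth muscle and pericyte markers 2 were called higher and 3 lower there, with a median of -0.39. Between far stroma and parenchyma the sums rose for some cell types and fell for others, and their part in the differences below was not tested.

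In parenchyma against far stroma, the epithelial laminin chains, the integrin subunit ITGB6 and most leukocyte integrins were higher, and the laminin chains LAMA4, LAMB2 and LAMC1, both nidogens, perlecan and the fibroblast collagen receptor ITGA11 were lower. Of the 40 members, 19 were called higher and 11 lower at a limma adjusted p under 0.05, and 10 were not called. That is 75% of the members, against a background of 50.1% of the 14596 genes tested (26.1% higher and 24% lower). The median difference was 0.84 over the members and 0.06 over all genes tested, on the log2(normalised count + 1) scale used for every difference here. The groups did not overlap for 29 members, and for 45.5% of all genes tested. With each library scaled to its total of reads, which raised the median difference of all genes by 0.42, the members' split became 23 higher and 8 lower, and that of all genes went from 3805 higher and 3501 lower to 6366 and 2093.

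**Figure D1:**
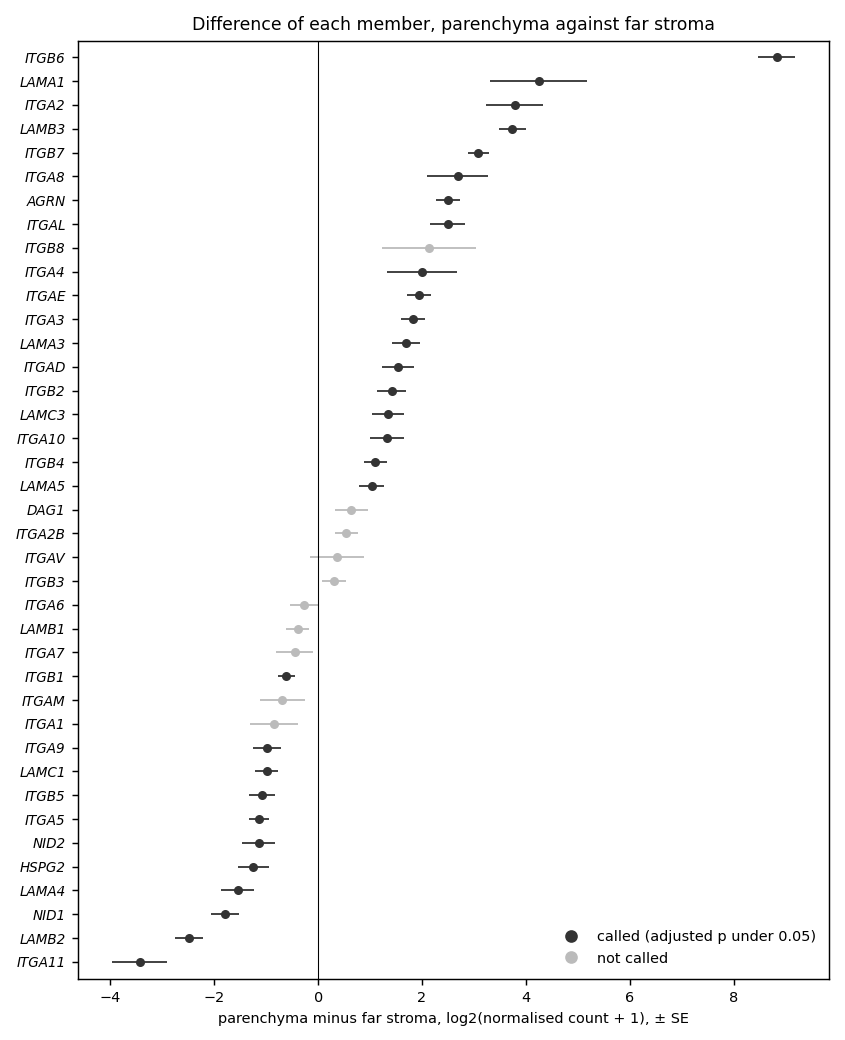
Difference between parenchyma and far stroma for 39 members, in log2(normalised count + 1), as points with standard errors from the fit across all genes. Black points were called and grey points were not, and ITGB6 (8.84) and ITGA11 (-3.43) lie at the 2 ends.

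The alpha and beta chains of the epithelial trimer were higher in parenchyma in 4 of 4 heifers each. LAMB3 (ENSBTAG00000016542), its beta chain, was at 1127, 962, 1012 and 1499 normalised counts in the parenchyma of heifers 1, 3, 4 and 5. In close stroma it was at 371, 886 and 716 (heifers 3, 4 and 5), and in far stroma at 88.1, 68.4, 76.7 and 108. The 3 regions did not overlap, and parenchyma was higher than far stroma by 3.74 ± 0.26 (adjusted p = 2.58e-07). LAMA3 (ENSBTAG00000027181), its alpha chain, was at 731, 697, 660 and 992 in parenchyma, at 327, 616 and 683 in close stroma and at 271, 331, 194 and 171 in far stroma. Its difference of 1.70 ± 0.27 (adjusted p = 1.97e-04) came with LAMA3 levels of 171 to 331 in the 4 far stroma samples.

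LAMB2, LAMA4 and LAMC1, known from the basement membranes of vessels, fat and muscle among others, went the other way. LAMB2 (ENSBTAG00000022635) was at 1952, 2160, 1757 and 2654 in parenchyma, at 7680, 3128 and 3567 in close stroma and at 9795, 10409, 13496 and 14354 in far stroma. The regions did not overlap for LAMB2 either, and parenchyma was lower than far stroma by 2.49 on the log2 scale (-2.49 ± 0.27, adjusted p = 9.61e-06). LAMA4 (ENSBTAG00000008817), an alpha chain of vessels and adipose tissue, averaged 1932 ± 665 (SD, n = 4) in parenchyma, against 5678 ± 1760 in far stroma (n = 4, -1.55 ± 0.32, adjusted p = 0.00142). LAMC1 (ENSBTAG00000011966), the gamma chain of most laminins, averaged 5889 ± 1011 and 11887 ± 3106 (-0.99 ± 0.22, adjusted p = 0.00288). LAMB1, the beta chain that most often joins LAMC1, was not called (3859 ± 1001 against 4944 ± 183, -0.40 ± 0.22, adjusted p = 0.146), although it was lower in parenchyma in 4 of 4 heifers. Its far stroma samples lay close together, at 4688 to 5088, while its parenchyma samples ran from 2686 to 4702.

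LAMA5, LAMC3 and LAMA1 were also higher in parenchyma in 4 of 4 heifers, and the samples of parenchyma and far stroma did not overlap. LAMA5 (ENSBTAG00000003061), an alpha chain of epithelium and vessels, averaged 1204 ± 312 against 591 ± 157 in far stroma (1.03 ± 0.24, adjusted p = 0.00326). LAMC3 (ENSBTAG00000017473), a gamma chain with a narrower distribution, averaged 158 ± 53.2 against 59.8 ± 11.6 (1.34 ± 0.30, adjusted p = 0.0028). LAMA1 (ENSBTAG00000018160), an alpha chain best known from the early embryo, was at 40.7, 28.5, 101 and 124 in parenchyma and at 13.7, 7.2, 0 and 0 in far stroma (4.25 ± 0.93, adjusted p = 0.00226). Its levels in close stroma, 7.67, 19.7 and 68.8, overlapped with both.

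**Figure D2:**
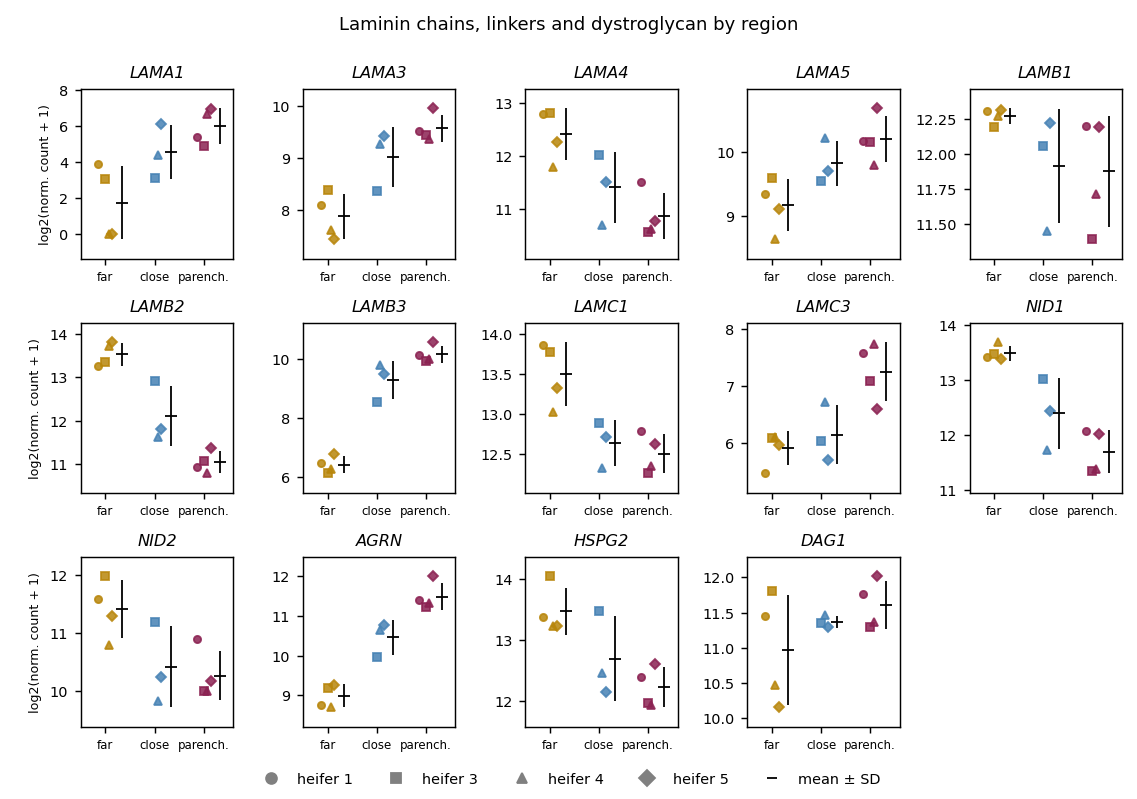
Level of 9 laminin chains, the 4 linkers and dystroglycan in each sample, as log2(normalised count + 1), with a separate axis for each gene. Marker shapes name the heifer and black bars give the mean and SD of a region; LAMB2 and LAMB3 show 3 regions that do not overlap, in opposite orders.

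Both nidogens and perlecan were lower in parenchyma, and agrin was higher. NID1 (ENSBTAG00000007244), the main link between laminin and type IV collagen, was at 4308, 2590, 2659 and 4147 in parenchyma, at 8349, 3404 and 5538 in close stroma and at 11011, 11461, 13219 and 10682 in far stroma (-1.79 ± 0.27 against far stroma, adjusted p = 1.33e-04). No parenchyma sample reached the lowest far stroma sample. HSPG2 (ENSBTAG00000017122), the gene of perlecan, averaged 4887 ± 1123 against 11730 ± 3486 (-1.25 ± 0.29, adjusted p = 0.00365). NID2 (ENSBTAG00000021945) averaged 1275 ± 427 against 2846 ± 943 (-1.15 ± 0.32, adjusted p = 0.00986), its groups overlapped, and it was not called with library-total scaling (adjusted p = 0.0574). AGRN (ENSBTAG00000013191), a proteoglycan that binds both laminin and dystroglycan, was at 2695, 2397, 2565 and 4069 in parenchyma, at 996, 1598 and 1744 in close stroma and at 435, 586, 416 and 616 in far stroma. AGRN and LAMB3 were thus both in the order far stroma, close stroma, parenchyma with no overlap. DAG1 (ENSBTAG00000011580), which codes for both parts of dystroglycan, was not called (3186 ± 762 against 2230 ± 1148, 0.64 ± 0.32, adjusted p = 0.112). DAG1 was called with library-total scaling (adjusted p = 0.0147) and without the far stroma of heifer 3 (adjusted p = 0.0196), the highest of its group.

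Other basement membrane genes also went in both directions, as did all genes tested (26.1% higher and 24% lower). Of 17 tested partners (21 listed), 6 were higher in parenchyma and 8 lower, with a median difference of -0.02. COL7A1, the collagen of anchoring fibrils under epithelium, averaged 685 ± 106 in parenchyma and 44.5 ± 4.39 in far stroma (3.91 ± 0.30). FREM1, a matrix protein of epithelial basement membranes, averaged 183 ± 21.9 and 4.55 ± 5.28 (5.85 ± 0.71), and SMOC2, a matricellular protein, was higher by 1.94 ± 0.29. Type IV collagen split by chain. COL4A5 was higher (320 ± 74 against 49.3 ± 25.3), as was COL4A6 (97.7 ± 37.6 against 22.4 ± 19), and COL4A1 (-2.83) and COL4A2 (-2.88 ± 0.36), the chains of most basement membranes, were lower. SMOC1 averaged 192 ± 97.6 and 7055 ± 1567 (-5.30 ± 0.36), the matrix glycoprotein TINAGL1 differed by -3.10 ± 0.33, and PXDN, the enzyme that cross-links type IV collagen, by -1.67 ± 0.22.

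Dystroglycan's partners included genes called in both directions. Of 19 tested genes of its complex and its glycosylation (22 listed), 3 were higher in parenchyma and 5 lower (6 and 5 with library-total scaling), with a median of -0.08. Since 50.1% of all genes tested were called (26.1% higher and 24% lower), this count is no result about the list. LARGE2, a glycosyltransferase that builds the laminin-binding sugar of dystroglycan, averaged 356 ± 54.4 against 3.31 ± 1.64 (6.43 ± 0.35). DTNB (2.98 ± 0.21), a dystrobrevin, and SNTB1 (2.46 ± 0.24), a syntrophin, were higher. SGCB (-1.94 ± 0.23) and SGCA (-2.67 ± 0.38), sarcoglycans best known from muscle, were lower.

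Apart from the added count of 1, ratios of chains within a sample do not depend on how libraries are scaled, and 4 of the 5 compared between parenchyma and far stroma are given here. Such ratios restate levels of single genes that are also given here, from the same samples, so they are no independent evidence. The log2 ratio of LAMB3 to LAMB1 was -1.73 ± 0.24 in parenchyma (SD, n = 4) and -5.86 ± 0.23 in far stroma (n = 4, difference 4.13), that of LAMA3 to LAMA4 -1.29 ± 0.51 and -4.54 ± 0.29 (3.25), and that of ITGB4 to ITGB1 -0.66 ± 0.27 and -2.37 ± 0.49 (1.72). These 3 ratios were higher in parenchyma in 4 of 4 heifers, with no overlap between the groups (exact permutation test, two-sided, p = 0.0286 each, the smallest that 4 against 4 samples allow, and 0.0357 after Benjamini-Hochberg adjustment over the 5 ratios). The ratio of ITGA6 to ITGA1 overlapped between the groups (4.41 ± 0.31 and 3.83 ± 0.58, exact permutation p = 0.114, adjusted 0.114). In close stroma the ratios of LAMB3 to LAMB1 and of LAMA3 to LAMA4 averaged -2.64 ± 0.93 and -2.39 ± 1.15 (SD, n = 3), and heifer 3 had the lowest of each, -3.52 and -3.67.

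**Figure D3:**
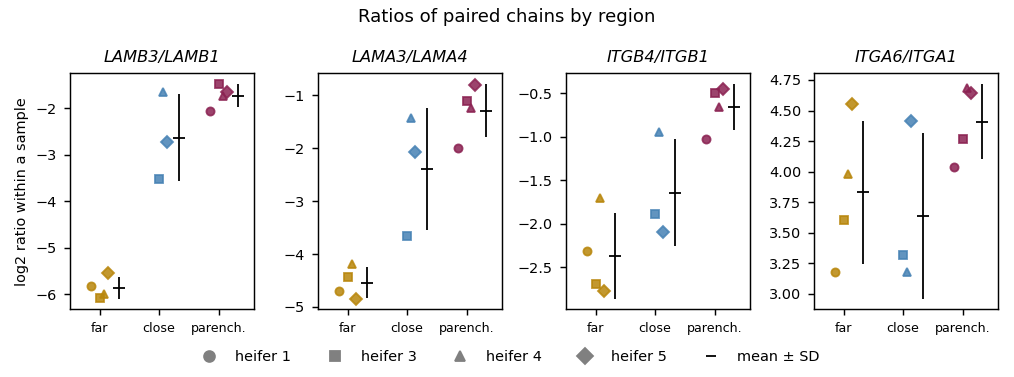
Log2 ratio of 2 genes within each sample for 4 pairs, by region, with the mean and SD as black bars. Parenchyma lies above far stroma without overlap for LAMB3/LAMB1, LAMA3/LAMA4 and ITGB4/ITGB1, but not for ITGA6/ITGA1; a ratio of levels is not corrected for gene length, so only its change between regions can be read.

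Among the integrin subunits that bind laminin, ITGA3 and ITGB4 were higher in parenchyma, while ITGA6 and ITGA7 were not called. ITGA3 (ENSBTAG00000019498), which pairs with ITGB1, was at 1313, 1356, 1454 and 1843 in parenchyma, at 710, 1163 and 950 in close stroma and at 275, 570, 388 and 490 in far stroma (1.83 ± 0.23 against far stroma, adjusted p = 3.57e-05). Its 3 regions did not overlap. ITGB4 (ENSBTAG00000018169), the hemidesmosome subunit, was at 2263, 2354, 2588 and 2707 in parenchyma and at 1329, 880, 1503 and 995 in far stroma (1.10 ± 0.22, adjusted p = 0.0011). The far stroma range thus held the ITGB4 levels of 2 close stroma samples (1336 in heifer 3, 1300 in heifer 5). In far stroma the basal keratin KRT5 averaged 6.02 ± 2.48 and TP63 was at 0, while the 10 basal and myoepithelial markers together summed to 2037 to 3464. The part of such cells in the ITGB4 levels was not tested. ITGA6 (ENSBTAG00000017266), the partner of ITGB4 and ITGB1, averaged 2300 ± 509 in parenchyma, 2867 ± 488 in close stroma and 2886 ± 1089 in far stroma (-0.27 ± 0.27 for parenchyma against far stroma, adjusted p = 0.43). ITGA7, a laminin receptor of muscle, averaged 571 ± 308 and 729 ± 274 (-0.46 ± 0.36, adjusted p = 0.316) and was higher in parenchyma in 2 of 4 heifers. ITGB1 (ENSBTAG00000015910), the beta subunit shared by most of these receptors, was lower in parenchyma in 4 of 4 heifers (3933 ± 560 against 6018 ± 904, -0.61 ± 0.17, adjusted p = 0.00909), but was not called with library-total scaling (adjusted p = 0.381).

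Of 10 hemidesmosome and laminin receptor partners, 6 were higher in parenchyma and 3 lower (7 and 1 with library-total scaling), with a median of 1.01. Of all genes tested 50.1% were called (26.1% higher and 24% lower), with a median of 0.06. COL17A1, the transmembrane collagen of hemidesmosomes, averaged 7913 ± 2281 in parenchyma and 9.51 ± 0.77 in far stroma (9.52 ± 0.46). COL17A1, KRT5 and KRT14 are also among the basal epithelial markers above. The cell surface proteoglycans SDC1 (2.18) and SDC4 (1.46 ± 0.23) were higher. DST (-0.75 ± 0.20) and PLEC (-0.62 ± 0.20), which link hemidesmosomes to keratin in epithelium and have isoforms in muscle and other tissues, were lower, as was CD151, a tetraspanin that binds laminin receptors (2500 ± 686 against 13305 ± 5546, -2.35 ± 0.33). With library-total scaling DST (adjusted p = 0.207) and PLEC (0.355) were not called.

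The collagen-binding subunits, which all pair with ITGB1, went in different directions. ITGA11 (ENSBTAG00000008380), a fibrillar collagen receptor of fibroblasts, was at 136, 40.6, 36.5 and 181 in parenchyma, at 291, 169 and 159 in close stroma and at 1322, 433, 1440 and 640 in far stroma. Every far stroma sample lay above every sample of the other regions, and the difference from parenchyma was -3.43 ± 0.53 (adjusted p = 1.80e-04). ITGA2 (ENSBTAG00000019289), a collagen and laminin receptor found on epithelium and platelets, was at 130, 191, 108 and 110 in parenchyma, at 69, 201 and 99.6 in close stroma and at 25.4, 12, 2.26 and 6.45 in far stroma (3.79 ± 0.55, adjusted p = 1.05e-04). The lowest sample of parenchyma and of close stroma thus exceeded the highest of far stroma. ITGA10, best known from cartilage, averaged 67.6 ± 10.2 and 27.5 ± 9.55 (1.32 ± 0.33, adjusted p = 0.00532). ITGA1, a receptor for type IV collagen, was lower in parenchyma in 4 of 4 heifers without being called (113 ± 48.2 against 224 ± 137, -0.85 ± 0.47, adjusted p = 0.149), and was called with the heifer as a block (adjusted p = 0.0169). ITGA1 and ITGA2 are neighbours in the RefSeq annotation of ARS-UCD2.0, with no protein-coding gene between them.

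**Figure D4:**
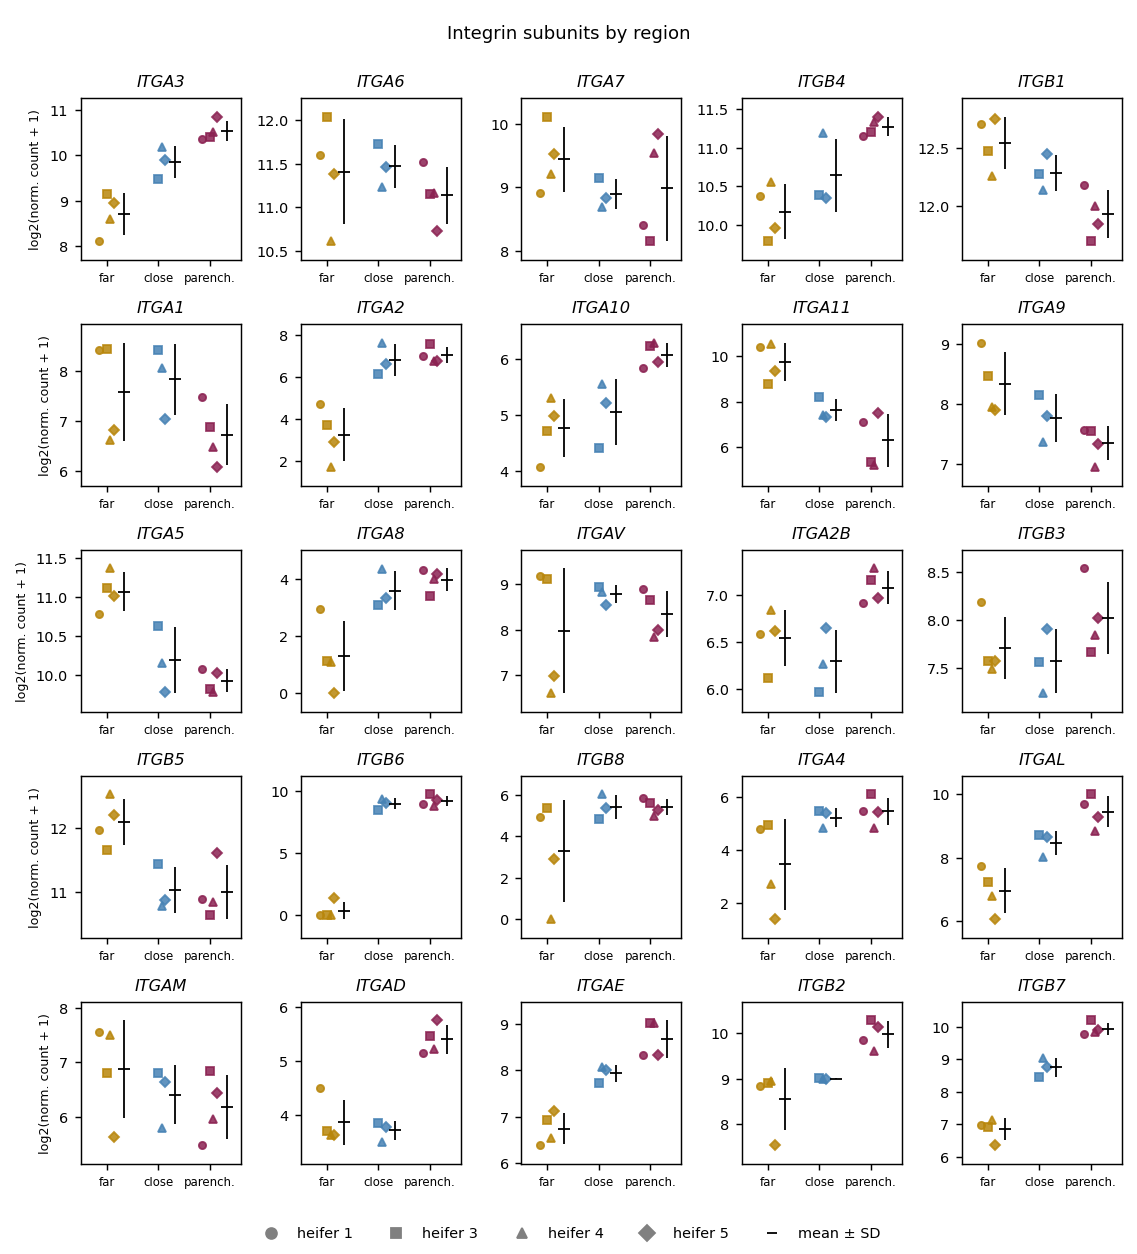
Level of the 25 integrin subunits in each sample, as log2(normalised count + 1), with a separate axis for each gene, heifers as marker shapes and the mean and SD of a region as black bars. ITGB6 is near 0 in far stroma and high in close stroma and parenchyma, and ITGAV shows low values in the far stroma of heifers 4 and 5.

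ITGB6 had the largest difference between parenchyma and far stroma of the 40 members. This subunit (ENSBTAG00000009080), which pairs with ITGAV on epithelial cells and activates TGF-beta, was at 496, 832, 447 and 612 in parenchyma, at 357, 653 and 523 in close stroma and at 0, 0, 0 and 1.61 in far stroma. The far stroma group held 1 read of it and the parenchyma group 2850, a pooled ratio of 2008 (95% counting interval 360 to 79300, which covers counting error only). The fitted difference of 8.84 ± 0.35 (adjusted p = 4.35e-09) depends on the added count of 1. ITGAV, its partner, was not called (340 ± 119 against 340 ± 265, adjusted p = 0.579).

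The other subunits that bind the RGD motif showed smaller differences. ITGB5 (ENSBTAG00000013755), a vitronectin receptor subunit, was lower in parenchyma (2125 ± 681 against 4443 ± 1103, -1.08 ± 0.24, adjusted p = 0.00275), and ITGA5 (ENSBTAG00000013745), the fibronectin receptor subunit, was lower too (975 ± 100 against 2169 ± 367, -1.14 ± 0.19, adjusted p = 3.07e-04). Neither overlapped between parenchyma and far stroma. ITGA8, a receptor for nephronectin, was higher at low levels (15.3 ± 3.99 against 2.29 ± 3.09, 2.69 ± 0.59, adjusted p = 0.00236). ITGB8 (43.1 ± 11.5 against 18.9 ± 18.7, 2.13 ± 0.90, adjusted p = 0.0655) was not called, but was with library-total scaling (0.0286) and without the far stroma of heifer 1 (0.0298) or 3 (0.0184). ITGA2B, the alpha subunit of the platelet fibrinogen receptor, did not overlap between the groups (135 ± 16.2 against 93.2 ± 18.4) and was not called (0.54 ± 0.22, adjusted p = 0.0584). ITGA2B was called with library-total scaling (adjusted p = 0.00555), with DESeq2 (0.0449) and without the far stroma of heifer 4 (0.0408). Its partner ITGB3 was not called (265 ± 73.2 against 212 ± 52.3, adjusted p = 0.292) except with library-total scaling (0.0247). Of 6 platelet markers 1 was measured, with a level of 0 to 0.81 in parenchyma and 4.51 to 8.81 in far stroma.

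Of 17 tested integrin ligands (23 listed), 4 were higher in parenchyma and 7 lower (6 and 4 with library-total scaling), with a median of -0.40. All genes tested also went in both directions (26.1% higher and 24% lower). CDH1, the epithelial cadherin that ITGAE with ITGB7 binds, averaged 5882 ± 992 and 94.5 ± 29.6 (5.98 ± 0.35). The secreted RGD protein SPP1 (12534 ± 7104 against 503 ± 262) was higher, as were NPNT, the nephronectin ligand of ITGA8 (1.49 ± 0.24), and TNC, the tenascin ligand of ITGA9 (1.40 ± 0.38). TGFBI (-1.96 ± 0.31), FBN1 (-1.76 ± 0.35), TNXB (-1.51 ± 0.30) and THBS2 (-1.51 ± 0.35), matrix proteins of connective tissue, were lower, and FN1, the fibronectin ligand of ITGA5, was lower by 1.32 on the log2 scale (-1.32, adjusted p = 0.0216, and 0.0697 with library-total scaling).

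Most leukocyte integrins were higher in parenchyma. ITGB7 (ENSBTAG00000018993), the partner of ITGA4 and ITGAE on lymphocytes, was at 875, 1166, 915 and 958 in parenchyma, at 345, 523 and 430 in close stroma and at 123, 120, 139 and 80.6 in far stroma. The regions did not overlap, and the difference between parenchyma and far stroma was 3.09 ± 0.20 (adjusted p = 1.36e-07). ITGAL (ENSBTAG00000007103), the alpha subunit of LFA-1 on lymphocytes, was at 824, 1017, 459 and 625 in parenchyma, at 416, 260 and 403 in close stroma and at 211, 150, 111 and 66.1 in far stroma (2.49 ± 0.34, adjusted p = 6.66e-05). ITGAE (ENSBTAG00000015264), which holds lymphocytes in epithelium, averaged 421 ± 116 and 108 ± 25.4 (1.95 ± 0.23, adjusted p = 2.14e-05), and ITGB2, the beta subunit shared by ITGAL, ITGAM and ITGAD, averaged 1019 ± 205 and 402 ± 146 (1.42 ± 0.28, adjusted p = 0.00113). The myeloid subunit ITGAM was not called (76.3 ± 30.5 against 132 ± 65.4, -0.69 ± 0.43, adjusted p = 0.207), except, as lower, without the far stroma of heifer 5 (adjusted p = 0.0269). ITGAD, its relative with 1 protein-coding gene between them in the RefSeq annotation, averaged 41.9 ± 8.32 and 14 ± 5.01 (1.54 ± 0.31, adjusted p = 0.00126), and the sources used here do not say whether the counting could share reads between such relatives.

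The sums of lymphocyte markers were also higher in parenchyma than in far stroma, without overlap. They were higher in close stroma than in far stroma as well, where ITGAE, ITGAL and ITGB7 were called but ITGB2, ITGAD and ITGAM were not. The summed level of 9 T and NK cell markers was 364 to 1068 in far stroma, 2880 to 3303 in close stroma, with 5403 to 7257 in parenchyma, and that of 7 B and plasma cell markers 92.4 to 389, 556 to 1558 and 2156 to 4453. The sums of 8 macrophage and myeloid markers overlapped, at 3108 to 10489, 3396 to 4597 and 3684 to 5402. Their part in the integrin levels was not tested. ITGA4, which binds VCAM1 and MADCAM1, was higher in parenchyma at low levels (45 ± 16.5 against 15.9 ± 14.4, 1.995 ± 0.67, adjusted p = 0.0254), and the groups overlapped. This call was lost when the far stroma of heifer 4 (0.0652) or 5 (0.0576) was left out, when parenchyma lacked heifer 3 (0.0711) or 5 (0.0501), and with edgeR (0.0531 with TMM scaling). ITGA9, its closest relative and a tenascin receptor, was lower (165 ± 31 against 341 ± 132, -0.99 ± 0.27, adjusted p = 0.00855), but was not called with library-total scaling (adjusted p = 0.0998).

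Proteins that bind the integrin tails went in both directions, as did all genes tested (26.1% higher and 24% lower). Of 30 adaptors and kinases, 8 were higher in parenchyma and 12 lower (11 and 6 with library-total scaling), with a median of -0.38. The kindlins, which activate integrins, differed by family member. FERMT1, the epithelial one, averaged 149 ± 23 in parenchyma and 74.6 ± 29.7 in far stroma, FERMT3, that of blood cells, differed by 1.29 ± 0.29, and FERMT2, the widespread one, averaged 639 ± 115 and 2101 ± 279 (-1.72 ± 0.20). The kinases SRC (1.59 ± 0.19) and PTK2B (2.12 ± 0.29) and the blood cell parvin PARVG (1.86 ± 0.30) were higher. TNS1, a tensin, averaged 3078 ± 544 and 27018 ± 3732 (-3.14 ± 0.27), and LIMS2 (-2.45 ± 0.33) and PARVB (-2.44 ± 0.33), adaptors of integrin-linked kinase, were lower too.

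Close stroma lay between the other regions for most members. The means rose from far stroma through close stroma to parenchyma for 19 members and fell in that order for 14. The other 7 were ITGA2B, ITGAD and ITGB3, lowest in close stroma and highest in parenchyma, ITGA7, lowest in close stroma and highest in far stroma, and ITGAV, ITGB8 and ITGA1, highest in close stroma. The share of all genes in each order is not given here, so these counts are no result about the members. Close stroma shares its samples with both comparisons that follow, so they are not independent of each other.

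Against far stroma, close stroma had 11 members called higher and 6 lower, 42.5% of them, against a background of 17% of all genes tested (11% higher and 5.99% lower). The higher ones included LAMB3 (2.86 ± 0.28), LAMA3 (1.14 ± 0.29), AGRN (1.47 ± 0.24), ITGA2, ITGA3, ITGA8, ITGB6 and the leukocyte subunits ITGAE, ITGAL and ITGB7. LAMA3 was higher in 2 of 3 heifers, and in heifer 3 it was at 327 in close stroma and 331 in far stroma, so that its groups overlapped. The lower ones were LAMB2 (-1.43 ± 0.29), LAMC1, NID1, ITGA5, ITGA11 and ITGB5. The groups did not overlap for 17 members, against 23.3% of all genes tested. With library-total scaling 14 members were higher and 5 lower, and the split of all genes went from 1600 higher and 875 lower to 2805 and 302. LAMC1 was then not called (-0.51, adjusted p = 0.146), while ITGB4 (0.0349), LAMA1 (0.0467) and LAMA5 (0.0224) were called higher. With heifers 3, 4 and 5 only, LAMC1 (0.0683) and ITGA11 (0.0518) were not called and LAMA1 was (0.0323), and DESeq2 called LAMA1 (0.0348), LAMA4 (0.0345) and NID2 (0.0497). With the heifer as a block 12 were higher and 8 lower, with 19.4% of all genes called, and the added members were ITGA4 (adjusted p = 0.0484), LAMA4 (0.0376) and NID2 (0.043). The count of lower members rested on single close stroma samples, as it was 9 without heifer 3, 2 without heifer 4 and 1 without heifer 5. Calls of LAMA3 (0.0908 and 0.094), LAMC1 (0.165 and 0.0822), NID1 (0.123 and 0.0669), ITGA11 (0.107 and 0.102), ITGB5 (0.0923 and 0.0778) and ITGA8 (0.15 and 0.0702) were each lost without the close stroma of heifer 4 or of heifer 5. ITGA5 (0.0691) and ITGAL (0.067) were lost without the close stroma of heifer 5, and ITGA8 also with edgeR (0.0565 with TMM scaling). Without 1 far stroma sample, LAMC1 was lost (heifer 1 at 0.0567, heifer 3 at 0.0652), as were NID1 (heifer 4, 0.0502), ITGA11 (heifer 4, 0.0669) and ITGA8 (heifer 4 at 0.0573, heifer 5 at 0.0616). Without the close stroma of heifer 3, HSPG2 (0.0098), LAMA4 (0.018), NID2 (0.00978) and LAMA1 (0.0356) were added. Without 1 far stroma sample, LAMA1 (heifer 1, 0.0236), ITGA4 (heifer 1 at 0.0486, heifer 3 at 0.0455), LAMA4 (heifer 4, 0.0351) and NID2 (heifer 4, 0.0404) were added.

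Between parenchyma and close stroma few members were called. ITGB7 (1.19 ± 0.21, adjusted p = 0.00553), ITGAD (1.69 ± 0.34, adjusted p = 0.00969) and AGRN (1.03 ± 0.24, adjusted p = 0.0246) were higher in parenchyma, and LAMB2 was lower (-1.07 ± 0.29, adjusted p = 0.0428). That is 10% of the members, against 7.12% of all genes tested (2.02% higher and 5.1% lower), and 11 members did not overlap, against 26.2% of all genes tested. With the heifer as a block 6 members were higher and 1 lower, with 9.93% of all genes called. LAMB3 (0.0378), LAMC3 (0.0381) and ITGA10 (0.0393) were then higher, ITGA1 was lower (0.0163), and LAMB2 was not called (0.0621). With heifers 3, 4 and 5 only, neither AGRN (0.0512) nor LAMB2 (0.0946) was called. AGRN was also lost when close stroma lacked heifer 3 (0.128) or parenchyma lacked heifer 5 (0.0592). LAMB2 was lost when far stroma lacked heifer 3 (0.0516), when close stroma lacked heifer 3 (0.166) or 5 (0.0619), and when parenchyma lacked any of heifers 1 (0.0915), 3 (0.0951), 4 (0.118) and 5 (0.0533). Without the close stroma of heifer 4, the sample whose name carries the extra letter, ITGB4 (0.0255), LAMB3 (0.0332) and LAMC3 (0.0305) were higher and NID1 was lower (0.0368). ITGB2 was higher without the far stroma of heifer 5 (0.00596), which moves the estimate of the spread, and LAMC3 without the parenchyma of heifer 5 (0.0378).

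**Figure D5:**
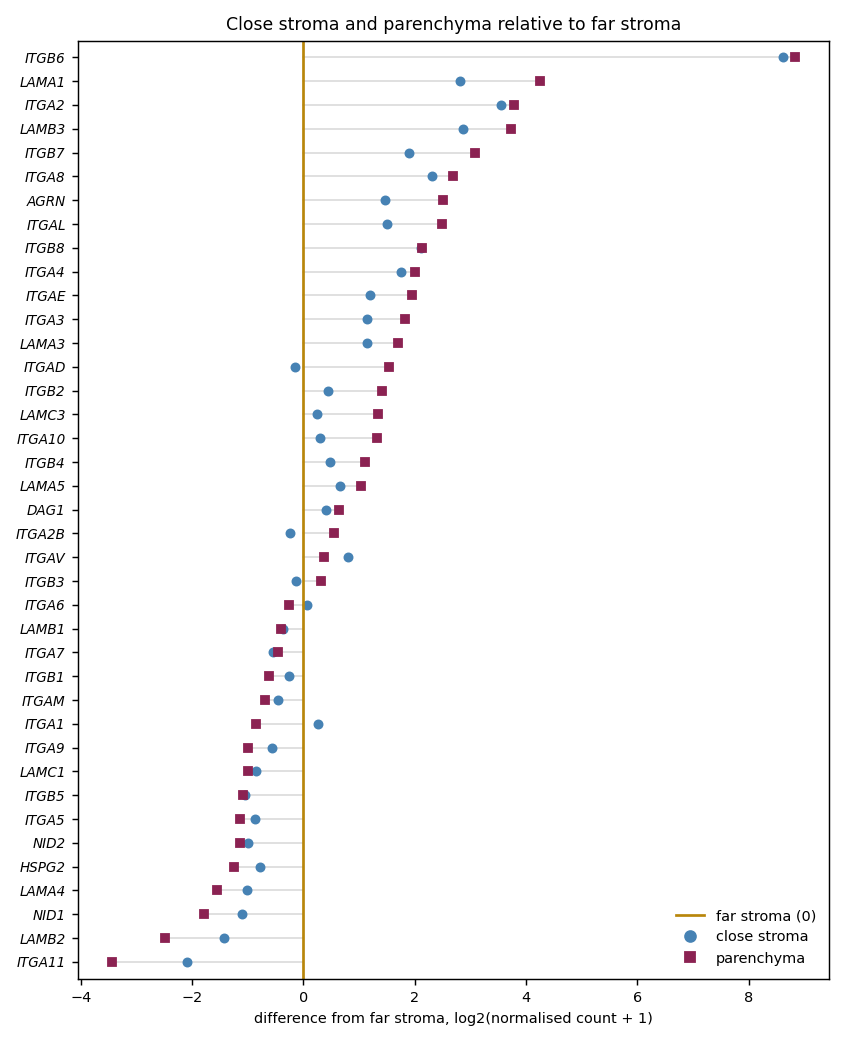
Mean difference of close stroma (circles) and of parenchyma (squares) from far stroma (line at 0) for 39 members, in log2(normalised count + 1). Circles lie between the line and the square for most members, and ITGB6 has both marks far to the right (8.61 and 8.84).

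Set against the midpoint of parenchyma and far stroma on the log2 scale, close stroma differed in ITGB6, which lay 4.19 ± 0.34 above it (adjusted p = 4.44e-05). That is 2.5% of the members, against 1.65% of all genes tested (1.61% above and 0.0411% below). On the log2 scale, an even mixture of the other regions lies above their midpoint for a gene that differs between them in either direction. The larger that difference, the further above the mixture lies. A call above the midpoint therefore does not set close stroma apart from such a mixture. Some cell type markers were called above the midpoint too. They included 14 of 14 luminal (median 3.21), 5 of 10 basal and 6 of 8 adipocyte markers. Among them were KRT5 (3.87 ± 0.31) and KRT8 (3.49 ± 0.33). The B and plasma cell and the nerve and Schwann cell lists had 1 such marker each. Fibroblast (median -0.63), blood endothelium, smooth muscle and pericyte, T and NK cell, macrophage and skeletal muscle markers had 0. The part of cell type markers in the ITGB6 value was not tested. That value depends on the added count of 1, as the far stroma group held 1 read of ITGB6. With the heifer as a block, which called 1.69% of all genes, LAMB3 was added (adjusted p = 0.0338). LAMB3 was also above the midpoint without the close stroma of heifer 3 (0.00433), with edgeR (0.0193 with TMM and 0.0259 with RLE scaling) and with DESeq2 (0.00247). ITGA2 was above it with DESeq2 (0.0161). No member was called below the midpoint by limma, although ITGAD and ITGA2B were below it at an unadjusted p under 0.05 (-0.92 ± 0.30 and -0.52 ± 0.21, adjusted p = 0.235 and 0.469).

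The close stroma samples differed among themselves. Of the 30 members called between parenchyma and far stroma, the close stroma of heifer 3 was the nearest of the 3 to the far stroma mean for 25, and that of heifer 4 the nearest to the parenchyma mean for 16. The same shares over all genes are not given here, so these counts are not particular to the members. The adipocyte marker sums were 193944, 50913 and 92481 in heifers 3, 4 and 5, and the luminal marker sums 18254, 39529 and 27628. LAMB2 (7680, 3128 and 3567), NID1 and LAMB3 (371, 886 and 716) followed the same order of samples in opposite directions. The part of these marker levels in the differences was not tested.

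Members also varied between heifers within a region. The SD between samples on the log2 scale had a median of 0.47 over the members in far stroma, 0.43 in close stroma and 0.37 in parenchyma, against 0.39, 0.29 and 0.27 over all genes tested. ITGAV was at 582 and 556 in the far stroma of heifers 1 and 3 and at 97.1 and 126 in that of heifers 4 and 5. ITGA1 was at 342 and 344 and at 98.2 and 113 in the same samples, and DAG1 at 2804 and 3562 and at 1415 and 1140. Heifers 4 and 5 thus had the lower far stroma level of each of these genes, which were named after their values were seen. In parenchyma ITGAV was at 478 and 400 in heifers 1 and 3 and at 228 and 255 in heifers 4 and 5, but in close stroma it was at 488, 457 and 375 in heifers 3, 4 and 5. The far stroma samples of heifers 4 and 5 also had the most genes at 0, 903 and 1128 against 672 and 798 in heifers 1 and 3. Their depths were 10431459 and 7274474 reads, the latter the lowest of all samples, against 10557937 and 9190163 in heifers 1 and 3. The part of depth and of genes at 0 in the levels was not tested.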

How the data were processed

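Poly A selected RNA of 11 mammary samples from 4 heifers was sequenced, per the labels. The authors deposited a signal per gene and sample, headed as normalised counts; the build ARS-UCD1.2 and the tools STAR, HTSeq, cutadapt and DESeq2 are named in the submitters' processing notes, with no version or role. The sources used here do not say whether counting used strand. Dividing by what 1 read is worth gave whole numbers (tolerance 0.01) for 100% of values in each sample, so whole reads were recovered (7274474 to 11156909 per sample) and used for edgeR (4.0.16) and DESeq2 (1.42.0) as alternatives.

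The test was limma on log2(value + 1) (version 3.58.1, R 4.3.3, variance trend), in 1 fit of 3 regions over the 14596 genes with a highest group mean of at least 10. P-values were adjusted by Benjamini-Hochberg over all of these. Raw counts had been foreseen for edgeR and normalised values for limma, which applied. The scale understates changes of low genes. Where a group held 1 to 3 reads, pooled reads give a ratio with an exact interval.

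Numbers in the labels name animals and so pair samples: deviations from region means correlated at 0.117 to 0.383 within heifers (10 pairs) and at -0.349 to 0.224 between them (30 pairs). The fit without the heifer block is the one reported. Simulated data with known changes were used to check the fit. For parenchyma against far stroma it found 32 of 100 2-fold and 85 of 100 4-fold changes, with 3 false calls. For parenchyma against close stroma it found 24 and 81 of 100, with 9 false calls. Only 100 genes of each size were changed among the 14296 tested, and no heifer effect was simulated. In the data 50.1% of genes were called in parenchyma against far stroma, so the shares found need not hold for the data. A gene that was not called can still differ by 2-fold. Alternatives were other scalings, pseudocounts (0.5 and 5) and filters (none and 50), the block, edgeR, DESeq2, each sample left out, and heifers 3, 4 and 5 only.

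Members, the 5 partner lists and the 12 marker lists were chosen with earlier results of these data known. 1 member and some partner genes are counted but not reported here. The other members are named, with up to 4 called partners per list and direction with the smallest p; other partners (COL4A1, COL4A6, SDC1, FN1, FERMT1) were named after their values were seen.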

Additional observations from a re-analysis of the deposited data

Results flagged for a closer look

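In 6 groups of 4 samples, 1 sample stood apart from the other three, among 80 groups examined, and chance alone gives about 1 such group in 20. HSPG2 was at 16907 normalised counts in the far stroma of heifer 3, and at 9640 to 10699 in the others. ITGAD was at 21.5 in the far stroma of heifer 1, and at 11.3 to 12 in the others. ITGB2 was at 184 in the far stroma of heifer 5, and at 456 to 490 in the others. ITGB3 was at 291 in the far stroma of heifer 1, and at 179 to 190 in the others. In parenchyma, heifer 1 stood apart for LAMA4, at 2920 against 1510 to 1736, and for NID2, at 1909 against 1019 to 1149. ITGB6 was at 1.61, which is 1 read, in the far stroma of heifer 5 and at 0 in the others, where any single read would stand apart by construction, so it is left out of that number.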

How the results depend on the processing

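No called member changed direction under any alternative run. Of the 30 members called between parenchyma and far stroma, 26 remained called under every alternative that tested them; between close and far stroma this held for 9 of 17, and between parenchyma and close stroma for 2 of 4. With library-total scaling, all genes called were 6366 higher and 2093 lower in parenchyma against far stroma (3805 and 3501 as reported) and 2805 higher and 302 lower in close against far stroma (1600 and 875). In parenchyma against close stroma (295 higher, 744 lower), the replicate block gave 496 higher genes and 6 higher members, and DESeq2 845 higher and 1216 lower genes and 9 higher members. Heifers 3, 4 and 5 only gave 183 higher genes there, with 2 higher and 0 lower members. For the midpoint (235 above, 6 below), edgeR called 408 (TMM) or 388 (RLE) genes above and 3 members with either, and DESeq2 553 above, 38 below and 4 members. Genes below it numbered 2 with library-total scaling or a pseudocount of 5, 3 with the block and 0 with heifers 3, 4 and 5 only; the block called 2 members above it. No member was called below the midpoint by limma, edgeR or DESeq2. The cause of these shifts was not tested.

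Leaving out 1 sample at a time gave, for members, 18 to 21 higher and 11 to 12 lower in parenchyma against far stroma, 2 to 6 and 0 to 2 in parenchyma against close stroma, 8 to 13 and 1 to 9 in close against far stroma, and 1 to 2 above the midpoint. For all genes it gave 3260 to 3886 and 3035 to 3536, 53 to 384 and 326 to 912, 1018 to 1940 and 176 to 1692, and 115 to 394 above and 0 to 41 below the midpoint. The log2 ratio differences ran from 4.05 to 4.24 for LAMB3/LAMB1, 3.09 to 3.48 for LAMA3/LAMA4, 1.58 to 1.94 for ITGB4/ITGB1 and 0.36 to 0.82 for ITGA6/ITGA1. Within heifers the ratio differences kept their sign in 4 of 4 heifers, where a paired sign-flip test of 4 cannot pass.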
